A study of Mus musculus with 12 samples.

Results

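The proteasome genes of mouse inv(16) leukaemia cells were followed across 3 labelled treatments. Members were all features whose symbol begins with Psma, Psmb, Psmc, Psmd, Psme, Psmf or Psmg, a choice that uses no measured value. This gave 50 of 24310 features, of which 48 passed the filter on low values (4 or more of the 12 libraries at an RPKM of 1 or above) and were tested. RPKM corrects read numbers for the length of the transcript and the size of the library, so levels of different genes can be set side by side. By role, 31 members encode constitutive subunits: 7 of the alpha ring, 7 of the constitutive beta ring, 6 ATPases and 11 non-ATPase subunits of the regulatory particle. The immunoproteasome set was Psmb8, Psmb9, Psmb10, Psme1 and Psme2. Another 7 members are assembly factors, and the rest are Psme2b, the other activators Psme3 and Psme4, the inhibitor Psmf1, the tissue-restricted Psma8 and Psmb11, and Psmc3ip, which shares the first letters only and encodes a meiotic recombination factor.

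The cells were CMM, a GFP-marked mouse model of inv(16) acute myeloid leukaemia, engrafted intravenously into C57BL/6 mice whose age the labels do not give. Once leukaemia cells made up about 1% of blood, mice were injected intravenously every other day, 3 times in all, with CpG-STAT3dODN, with CpG-scrODN or with PBS alone. CpG oligonucleotides engage the endosomal receptor TLR9, and dODN stands for a decoy oligonucleotide that STAT3 binds, with scrODN as its scrambled counterpart. RNA came from c-Kit enriched spleen cells taken 1 day after the last injection, so cells of the host spleen can be present. Each group had 4 libraries, at an estimated depth of 31450000 to 36220000 reads per library. The column headers name other groups than the labels: the libraries labelled PBS are headed DEC, those labelled CpG-scrODN are headed PBS, and those labelled CpG-STAT3dODN are headed SCR. Comparisons are therefore between labelled groups, and no direction is given to a treatment. The labels do not say that each library is a separate mouse, and p-values then cover only library-to-library spread, which may be technical.

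The proteasome degrades proteins tagged with ubiquitin. Its core is a stack of alpha and beta rings with 3 kinds of catalytic beta subunit, capped by a regulatory particle whose ATPases unfold the substrate and whose non-ATPase subunits bind and strip the ubiquitin. Interferons, chiefly interferon gamma acting in part through IRF1, induce Psmb8, Psmb9 and Psmb10, which replace Psmb5, Psmb6 and Psmb7 in newly built cores, and Psme1 and Psme2, which form the PA28 activator. The resulting immunoproteasome favours peptides for MHC class I, and blood cells carry much of it without stimulation. Loss of proteasome activity is known to activate Nfe2l1, which raises the constitutive subunits together.

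Promoter stretches are shown for 4 members. Windows of 250 bases before to 50 after the start were in the RefSeq table (GRCm38.p6) for 42 of the 50 members. The stretches printed here run from 250 bases before to 25 after the start, 5′ to 3′ on the gene's strand. They were chosen for an interferon-type motif, an Nfe2-type motif or, for Psmb9, a window that overlaps that of Tap1. Capitals mark matches on either strand to TTCNNNGAA (the STAT element called GAS), the interferon element ISRE (GAAA repeated after a gap of 2 bases), TGACNNNGC (the antioxidant element, ARE, of the Nfe2 family) or GGGCGG (the Sp1 box).
Psmb8, chr17:34197945-34198219 (+): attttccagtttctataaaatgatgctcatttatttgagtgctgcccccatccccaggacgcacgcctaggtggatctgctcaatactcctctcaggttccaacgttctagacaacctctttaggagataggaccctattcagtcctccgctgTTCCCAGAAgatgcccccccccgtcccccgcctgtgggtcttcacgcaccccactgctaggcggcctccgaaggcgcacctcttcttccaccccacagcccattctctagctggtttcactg
Psmb9, chr17:34187306-34187580 (-): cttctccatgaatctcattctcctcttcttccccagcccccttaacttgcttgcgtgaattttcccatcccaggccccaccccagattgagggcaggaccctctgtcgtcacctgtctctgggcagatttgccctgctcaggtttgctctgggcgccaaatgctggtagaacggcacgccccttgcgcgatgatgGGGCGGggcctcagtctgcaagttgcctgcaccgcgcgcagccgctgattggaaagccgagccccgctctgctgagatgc
Psme1, chr14:55578244-55578518 (+): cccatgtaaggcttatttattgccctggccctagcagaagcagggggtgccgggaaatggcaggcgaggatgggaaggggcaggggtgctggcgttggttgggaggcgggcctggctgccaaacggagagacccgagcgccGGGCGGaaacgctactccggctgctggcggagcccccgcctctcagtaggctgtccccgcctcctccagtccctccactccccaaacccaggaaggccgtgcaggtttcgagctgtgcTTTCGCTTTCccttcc
Psmb5, chr14:54617971-54618245 (-): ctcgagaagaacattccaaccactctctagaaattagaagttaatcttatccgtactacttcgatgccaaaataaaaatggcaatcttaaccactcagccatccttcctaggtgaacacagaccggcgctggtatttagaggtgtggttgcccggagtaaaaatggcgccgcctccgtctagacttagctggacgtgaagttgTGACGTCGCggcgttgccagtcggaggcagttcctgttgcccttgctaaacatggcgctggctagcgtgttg

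Psmb8 held its GAS match at -97 from the start, Psme1 its ISRE match 9 bases past the start, Psmb9 its Sp1 box at -55, and Psmb5 its ARE match at -47. In full windows of the 5 immunoproteasome genes, GAS matched in 1, ISRE in 1, ARE in 0 and the Sp1 box in 3. Of the 25 constitutive genes with a window, GAS matched in 1, ISRE in 2, ARE in 4, among them Psmb5 and Psmb6, and the Sp1 box in 15. Over all 32851 windows of the table the shares were 8.30% for GAS, 3.44% for ISRE, 12.4% for ARE and 35.7% for the Sp1 box. A match is a description of letters, not a bound site. The windows of Psmb9 and of Tap1, which encodes a chain of the peptide transporter that feeds class I molecules, overlap by 275 bases, with starts 226 bases apart on opposite strands.

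All members except Psma8 and Psmb11 passed the filter on low values, and the immunoproteasome genes were spread over the order of levels. Psmb1 of the constitutive beta ring led with a mean of 204 RPKM over the 12 libraries, and Psmb8 ranked 3 of the 50 at 143. Psme1 stood at 109 (rank 8), Psmb9 at 98.2 (rank 13), Psmb10 at 51.2 (rank 34) and Psme2 at 16.1 (rank 44), beside 86.5 for Psmb5, 80.7 for Psmb6 and 126 for Psmb7. Psma8, a testis form of an alpha subunit, had a mean of 0.0583 RPKM and was listed at 0 in 2 libraries, and Psmb11, the catalytic subunit of thymic cortical epithelium, had 0.0472. Together the 50 members took 0.864% to 1.04% of the summed RPKM of a library.

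No member passed the test in any comparison. Limma, on log2(RPKM + 1) with Benjamini-Hochberg adjustment over the 10886 genes tested, called 0 of 48 members between the labels CpG-scrODN and PBS, where it called 4.15% of all genes (0.11% higher and 4.04% lower), 0 of 48 between CpG-STAT3dODN and PBS, where it called 1.86% (0.0276% higher and 1.83% lower), and 0 of 48 between CpG-STAT3dODN and CpG-scrODN, where it called 0%. At an unadjusted p under 0.05 the members numbered 3, 1 and 0, against 15.6%, 9.4% and 2.71% of all genes. The lowest adjusted p of a member was 0.226, 0.492 and 0.960 in the same order. These values do not show that the groups are alike. Gene by gene, and under this model alone, the 95% intervals bound the differences relative to library-to-library spread. Those of all 48 members lay between -0.72 and 0.50 on the log2 scale for CpG-scrODN minus PBS. They lay between -0.66 and 0.45 for CpG-STAT3dODN minus PBS, and between -0.49 and 0.62 for CpG-STAT3dODN minus CpG-scrODN. A B-cell covariate, described further on, moved the estimates. No interval reached 1 in either direction, which on this scale is a doubling.

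**Figure D1:**
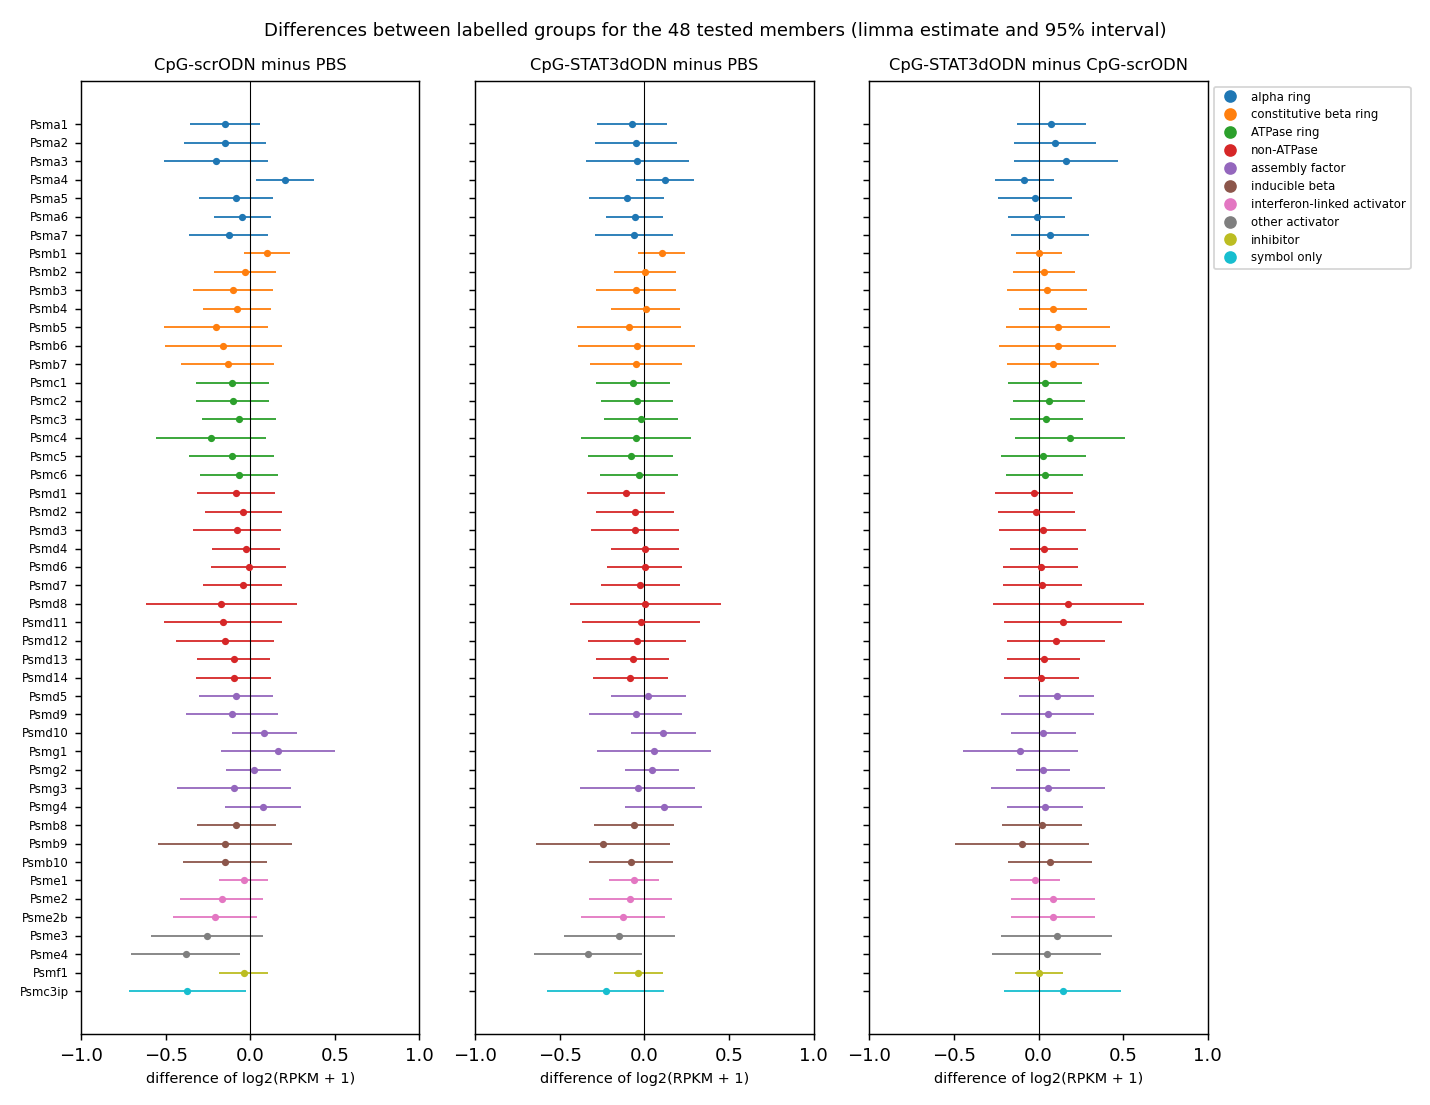
Differences of log2(RPKM + 1) between labelled groups for the 48 tested members, in rows by class, with the limma estimate as a point and its 95% interval as a line (4 libraries per group). Estimates lie close to 0 in all 3 panels, and no interval reaches 1 in either direction.

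The inducible catalytic subunits come first. Psmb8, which replaces Psmb5 and cuts after hydrophobic residues (chromosome 17, 34198195 to 34201454), was at 138, 155, 157 and 140 RPKM in the libraries labelled PBS, at 144, 152, 144 and 119 in those labelled CpG-scrODN, and at 150, 150, 153 and 116 in those labelled CpG-STAT3dODN. The groups overlapped, and the lowest values were in replicate 4 of the latter groups. Its difference was -0.08 for CpG-scrODN minus PBS (95% interval -0.32 to 0.15) and -0.06 for CpG-STAT3dODN minus PBS (-0.30 to 0.17).

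Psmb9, which replaces Psmb6 (chromosome 17, 34182030 to 34187330), was at 110, 112, 107 and 95.6 RPKM under the PBS label, at 97.1, 107, 107 and 75.4 under CpG-scrODN, and at 106, 97.9, 106 and 58.2 under CpG-STAT3dODN. Replicate 4 was the lowest library in every group. The difference for CpG-STAT3dODN minus PBS, -0.24 (95% interval -0.64 to 0.15), was the largest in size of the 5 immunoproteasome genes, and it was -0.09 without the pair of low-Fos libraries described further on. Psmb10, which replaces Psmb7 (chromosome 8, 105935728 to 105938392), was at 53.0, 54.4, 49.0 and 59.1 RPKM, then at 51.0, 53.0, 53.2 and 38.2, then at 53.8, 48.3, 55.9 and 46.1 in the same order of groups. Its low library was replicate 4 labelled CpG-scrODN, and the groups overlapped.

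Of the PA28 activator, Psme1 (chromosome 14, 55578494 to 55581527) was among the steadiest members, at 104, 109, 112 and 124 RPKM under PBS, 111, 106, 111 and 107 under CpG-scrODN, and 106, 105, 107 and 112 under CpG-STAT3dODN. Its difference from the PBS label was -0.04 (95% interval -0.19 to 0.11) for CpG-scrODN and -0.06 (-0.21 to 0.09) for CpG-STAT3dODN. Psme2 (chromosome 14, 55587440 to 55591101) was at 16.4, 17.5, 14.9 and 19.5, at 13.5, 14.4, 15.7 and 16.5, and at 13.9, 14.7, 16.7 and 19.1 RPKM. The low level of Psme2 is uncertain, because Psme2b (chromosome 11, 48945345 to 48946410), named after its values were seen, has a near-identical transcript. The GENCODE transcripts Psme2-201 and Psme2b-201 were 99.3% identical over 716 aligned bases, and Psme2b had a mean of 72.0 RPKM. How the authors' counting divided shared reads is not given in the sources used here. The sum of both was 83.7 to 113 RPKM under PBS, 77.9 to 86.8 under CpG-scrODN and 76.1 to 103 under CpG-STAT3dODN, near the level of Psme1.

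**Figure D2:**
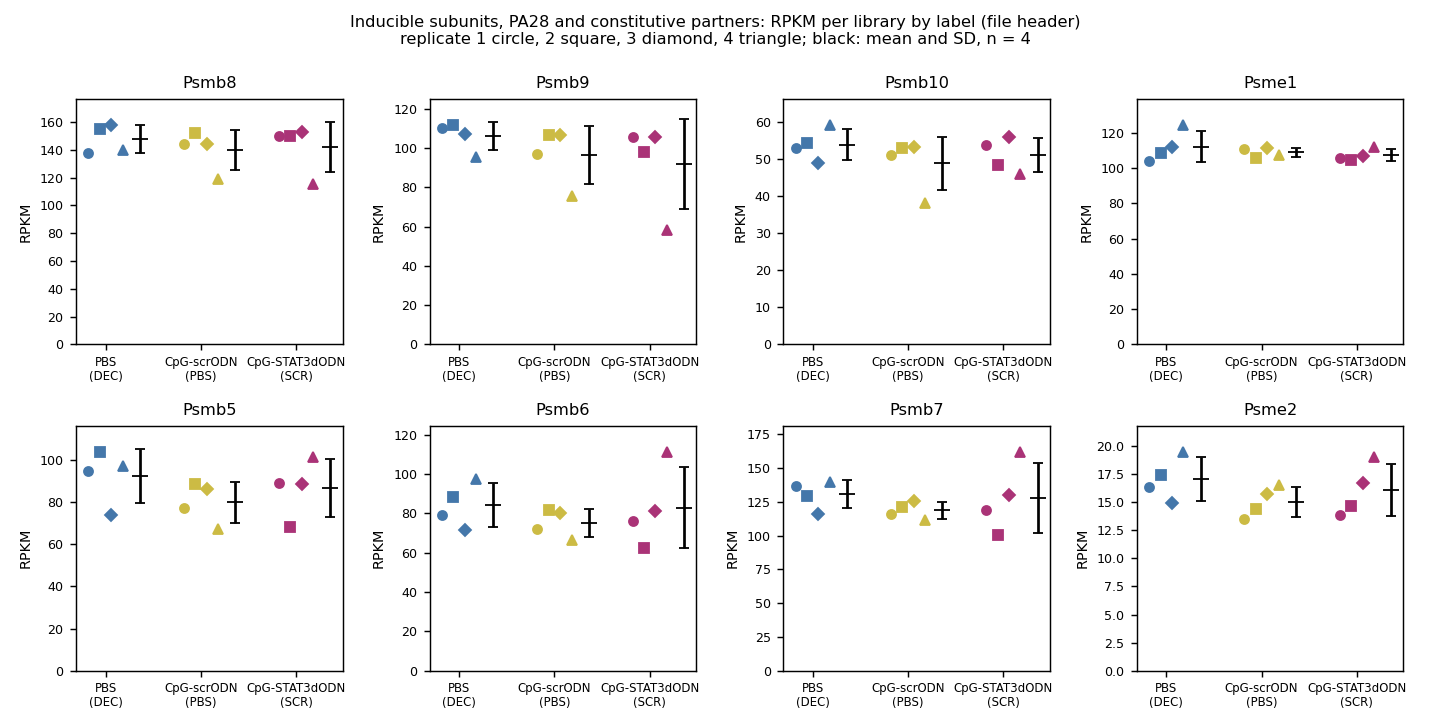
RPKM per library of the inducible subunits, PA28 and the constitutive partners, by label with the file header in brackets; symbols give the replicate number, black marks the mean and SD (n = 4). The groups overlap in each panel, and replicate 4 labelled CpG-STAT3dODN is the lowest of the 12 libraries for Psmb8 and Psmb9 and the highest for Psmb6 and Psmb7.

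The constitutive partners were set against their inducible counterparts within each library, which makes the ratio free of library scaling. Psmb5 (chromosome 14, 54614120 to 54617995) was at 92.5 ± 13.0 RPKM (SD, n = 4) under PBS, 80.0 ± 9.62 under CpG-scrODN and 87.0 ± 13.8 under CpG-STAT3dODN. Psmb6 (chromosome 11, 70525324 to 70527858), the partner of Psmb9, was at 84.2 ± 11.3, 75.03 ± 7.18 and 82.8 ± 20.6. Psmb7 (chromosome 2, 38588046 to 38643952), the partner of Psmb10, was at 131 ± 10.5, 119 ± 6.21 and 128 ± 25.9 RPKM. Psmb8 made up 53.2% to 68.6% of the RPKM of its pair over the 12 libraries and Psmb10 22.1% to 32.5%. Psmb9 made up 49.5% to 60.0% under PBS, 53.2% to 57.5% under CpG-scrODN, and 56.6% to 61.0% in replicates 1 to 3 under CpG-STAT3dODN, against 34.3% in replicate 4. Psmb8 was thus the larger member of its pair and Psmb10 the smaller in all 12 libraries.

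No pair ratio passed the test between labelled groups. A single ratio could not have passed after adjustment over the 9 tests, however far apart its groups lay, so unadjusted p and intervals are given. The log2 ratio of Psmb9 to Psmb6 was 0.34 ± 0.27 (SD, n = 4) under PBS, 0.35 ± 0.11 under CpG-scrODN and 0.14 ± 0.72 under CpG-STAT3dODN. For CpG-STAT3dODN minus PBS it differed by -0.20, with an interval of -1.502 to 0.67 from inverting the exact permutation test (coverage 97.1%) and p = 0.80, and without the low-Fos libraries by 0.03. That of Psmb8 to Psmb5 differed by 0.12 (-0.35 to 0.36) for CpG-scrODN minus PBS and by 0.03 (-0.90 to 0.59) for CpG-STAT3dODN minus PBS. That of Psmb10 to Psmb7 differed by -0.01 (-0.29 to 0.18) and -0.03 (-0.56 to 0.31). Over the 3 pairs and 3 comparisons, the 2-sided exact permutation p ran from 0.429 to 1, and all 9 adjusted values were 1, where 4 against 4 libraries allow no p under 0.0286. The intervals of Psmb9 with Psmb6 in both comparisons of CpG-STAT3dODN reach below -1 and not above 1. A fall of that size is thus not excluded there, while the interval of CpG-scrODN minus PBS (-0.40 to 0.46) holds neither -1 nor 1.

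**Figure D3:**
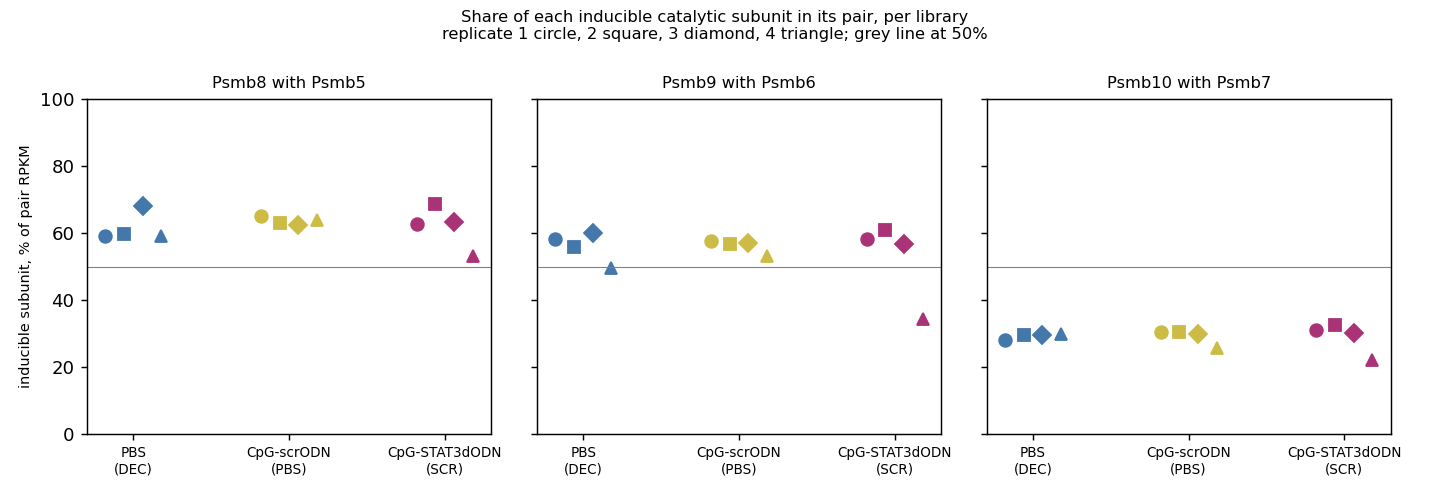
Share of each inducible catalytic subunit in the summed RPKM of its pair, per library and label, with the replicate number as the symbol and a grey line at 50%. Psmb8 lies above the line and Psmb10 below it in all 12 libraries, while Psmb9 drops to 34.3% in replicate 4 labelled CpG-STAT3dODN.

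As groups, the immunoproteasome and the constitutive subunits lay close together in each comparison. For CpG-scrODN minus PBS the median difference was -0.15 over the 5 immunoproteasome genes and -0.10 over the 31 constitutive genes, against -0.05 over all genes tested. For CpG-STAT3dODN minus PBS the medians were -0.08, -0.05 and -0.01, and for CpG-STAT3dODN minus CpG-scrODN they were 0.02, 0.04 and 0.03. By sign of the estimate alone, 29 of 31 constitutive genes were lower for CpG-scrODN minus PBS, and 21 of 31 after scaling by size factors. For CpG-STAT3dODN minus PBS 24 were lower (19 after scaling), and for CpG-STAT3dODN minus CpG-scrODN 5 were lower (13 after scaling). These signs are not separate pieces of evidence, since the genes share the same libraries. The mean log2 level of the 5 immunoproteasome genes, less that of the constitutive genes, was -0.23 ± 0.09 (SD, n = 4) under PBS, -0.26 ± 0.04 under CpG-scrODN and -0.30 ± 0.26 under CpG-STAT3dODN. In the last group, replicate 2 stood at -0.05 and replicate 4 at -0.66. Psme2, whose level is uncertain beside Psme2b, counts in this mean. Over Psmb8, Psmb9 and Psmb10 alone, the group means of the same difference were positive. They were 0.20 ± 0.12 (SD, n = 4) under PBS, 0.16 ± 0.13 under CpG-scrODN and 0.11 ± 0.38 under CpG-STAT3dODN.

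In the alpha ring, which gates the entry to the core, Psma4 was the highest member with a mean of 135 RPKM and Psma3 the lowest with 22.2. Psma4 was at 126, 139, 124 and 112 RPKM under PBS, at 134, 149, 147 and 146 under CpG-scrODN, and at 139, 132, 146 and 127 under CpG-STAT3dODN. It stood against the general sign, with a difference of 0.20 ± 0.08 (SE, limma adjusted p = 0.228) for CpG-scrODN minus PBS. Psmb1, of the non-catalytic part of the beta ring, was at 188 to 198 RPKM under PBS, 204 to 216 under CpG-scrODN and 194 to 228 under CpG-STAT3dODN. Its first 2 groups did not overlap, yet the difference was 0.10 ± 0.06 (SE, limma adjusted p = 0.479). The same comparison left 1 other member without overlap, Psma1, named after its values were seen, which was lower by sign at -0.15 (limma adjusted p = 0.476). So 2 of 48 members did not overlap there, against 13.9% of all genes, and 0 of 48 in each of the other comparisons, against 5.04% for CpG-STAT3dODN minus PBS and 4.25% for CpG-STAT3dODN minus CpG-scrODN.

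In the regulatory particle, the ATPases that unfold substrates ran from Psmc2 at a mean of 60.7 RPKM to Psmc3 at 100.4. Psmc3 was at 102 ± 8.15 RPKM (SD, n = 4) under PBS, 97.6 ± 6.52 under CpG-scrODN and 101 ± 12.6 under CpG-STAT3dODN. Among the non-ATPase subunits, Psmd8 of the lid was the highest at 103 RPKM and Psmd11 the lowest at 29.6. Psmd8 (chromosome 7, 29174187 to 29180673) was at 94.7, 96.5, 90.9 and 145 RPKM under PBS, at 91.7, 91.4, 95.3 and 93.7 under CpG-scrODN, and at 91.5, 85.8, 92.5 and 168 under CpG-STAT3dODN. Leaving out these libraries at 145 and 168 moved its difference from -0.17 to -0.02 for CpG-scrODN minus PBS, and from 0.18 to -0.05 for CpG-STAT3dODN minus CpG-scrODN. Psmd11 was at 30.9 ± 5.68, 27.3 ± 3.20 and 30.6 ± 6.58 RPKM.

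The assembly factors, chaperones that build the core and its cap, were lower in level, from Psmd9 at 11.8 to Psmg2 at 42.8 RPKM. Their median difference was 0.02, 0.04 and 0.04 for CpG-scrODN minus PBS, CpG-STAT3dODN minus PBS and CpG-STAT3dODN minus CpG-scrODN. Psmg2, a core chaperone, was at 42.2 ± 1.96 RPKM (SD, n = 4) under PBS, 42.8 ± 3.37 under CpG-scrODN and 43.5 ± 1.83 under CpG-STAT3dODN. Psmd9, an ATPase chaperone, was at 12.2 ± 1.41, 11.2 ± 0.383 and 11.9 ± 2.51.

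Of the other activators, Psme4, the PA200 cap linked to histone degradation, had the lowest adjusted p of any member. It was at 8.34, 6.29, 5.92 and 9.27 RPKM under PBS, at 5.25, 6.116, 5.37 and 4.93 under CpG-scrODN, and at 5.12, 4.52, 6.20 and 6.90 under CpG-STAT3dODN. The groups overlapped, and the differences from the PBS label, -0.38 ± 0.15 (SE, limma adjusted p = 0.226) and -0.33 ± 0.15 (SE, limma adjusted p = 0.492), did not pass. Psme3, the nuclear PA28 gamma, was at 95.8 ± 17.0, 79.4 ± 8.19 and 86.2 ± 14.2 RPKM. Psmf1, the PI31 inhibitor, had the smallest range over the 12 libraries of any tested member, 0.23 on the log2 scale, with values from 11.5 to 13.7 RPKM. Psmc3ip, which is no subunit, was at 9.72 ± 1.13 RPKM under PBS and 7.33 ± 1.31 under CpG-scrODN, a difference of -0.37 ± 0.16 (SE, limma adjusted p = 0.277).

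The members varied within labels from library to library. The range over the 12 libraries had a median of 0.50 on the log2 scale for the tested members, 0.57 for the 948 tested genes between the quartiles of the members' levels, and 0.65 for all genes tested. Of the 31 constitutive subunits, 24 (77.4%) had their lowest value in replicate 2 labelled CpG-STAT3dODN, where 13.7% of all genes tested had theirs, and 5 (16.1%) in replicate 4 labelled CpG-scrODN, against 16.5% of all genes. Their highest value was in replicate 4 labelled CpG-STAT3dODN for 20 (64.5%), against 18.8% of all genes, and in replicate 1 labelled PBS for 6 (19.4%), against 10.9%. The RPKM of all features summed to 355486 in replicate 2 and to 389400 in replicate 4 labelled CpG-STAT3dODN, the latter the highest of the 12 libraries. The lowest sum, 350027, was in replicate 4 labelled CpG-scrODN. Size factors of these libraries, in the same order, were 0.969, 0.988 and 0.952. The part of such scaling in the counts of lowest and highest values was not tested.

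**Figure D4:**
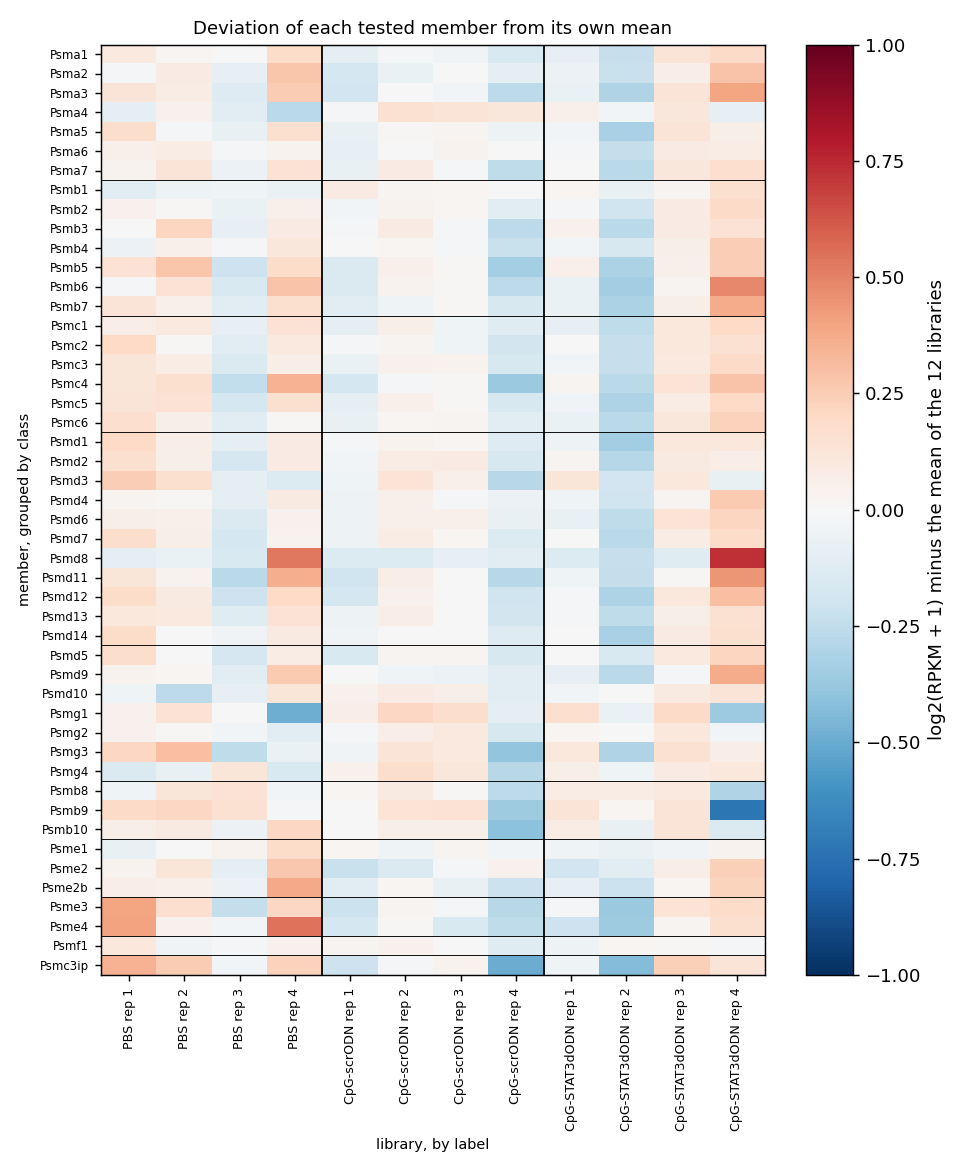
Deviation of log2(RPKM + 1) of each tested member from its own mean over the 12 libraries, with members in rows by class and libraries in columns by label. The column of replicate 2 labelled CpG-STAT3dODN is low for most constitutive members. Replicate 4 of that label is high for most constitutive members but not Psma4 or Psmd3, and low for Psmb8, Psmb9, Psmb10 and Psmg1.

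Replicate 4 labelled PBS and replicate 4 labelled CpG-STAT3dODN were set apart by Fos, an immediate-early gene, at 12.9 and 5.91 RPKM against 486 to 1156 in the other 10 libraries. In both, 20 of 48 members lay above each of the other 10 libraries, against 23.4% of all genes tested, and 1 lay below, against 18.8%. Those above included Psmb6, Psmb7, Psmd8, Psma3, Psmd11, Psmd9, Psme1, Psme2 and Psme2b. Psmg1, a core chaperone named after its values were seen, was the 1 below, at 27.6 and 30.3 RPKM against 36.7 to 45.4. Psmb9 was lowest of the 12 in the second of these libraries and, at 95.6 RPKM, above 2 others in the first.

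Genes upstream of and beside the immunoproteasome were read from 3 lists chosen by function. Of 20 genes that supply, carry or edit ubiquitin, 0 passed in each comparison. Of 13 measured genes for proteasome assembly and regulation outside the Psm symbols, 0 passed. Of 20 genes of interferon signalling and class I peptide loading, 1 passed as lower than the PBS label in both comparisons with it, where 4.04% (CpG-scrODN) and 1.83% (CpG-STAT3dODN) of all genes did, and 0 passed between CpG-STAT3dODN and CpG-scrODN. A count of 1 in 20 is close to these shares and is no result about the list. The gene was Nlrc5, the transactivator of class I genes and of Psmb9 (chromosome 8, 94434335 to 94527272). It was at 3.94, 2.26, 2.10 and 9.90 RPKM under PBS, at 0.482, 0.770, 0.424 and 0.490 under CpG-scrODN, and at 0.723, 0.487, 1.02 and 0.926 under CpG-STAT3dODN. The libraries labelled PBS lay above all others. Nlrc5 reached an RPKM of 1 in 5 libraries, the 4 labelled PBS and replicate 3 labelled CpG-STAT3dODN. It thus met the filter on low values through the PBS label, which favours a call of lower than PBS. With no such filter the call for CpG-scrODN minus PBS stayed (limma adjusted p = 0.0246) and that for CpG-STAT3dODN minus PBS did not (limma adjusted p = 0.0762). The differences were -1.65 (limma adjusted p = 0.0116) for CpG-scrODN minus PBS and -1.44 (limma adjusted p = 0.0448) for CpG-STAT3dODN minus PBS. The second call was lost, at an adjusted p of 0.0713 to 0.160 for Nlrc5, without replicate 1 labelled PBS, or without any one library labelled CpG-scrODN or CpG-STAT3dODN.

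Irf1, which binds interferon elements of these promoters, was at 12.4, 12.1, 10.4 and 25.9 RPKM under PBS, at 7.55, 7.28, 8.09 and 7.002 under CpG-scrODN, and at 7.70, 8.96, 8.05 and 9.77 under CpG-STAT3dODN. The groups did not overlap with PBS, but -0.85 (limma adjusted p = 0.0510) and -0.67 (limma adjusted p = 0.222) did not pass. Without replicate 4 labelled PBS, the first difference of Irf1 was -0.57 (limma adjusted p = 0.00645), and without replicate 3 labelled PBS it was -0.98 (limma adjusted p = 0.0299). Without both low-Fos libraries, the difference of Irf1 for CpG-STAT3dODN minus PBS was -0.45 and passed (limma adjusted p = 0.0213). With the B-cell marker mean as a covariate, both differences of Irf1 changed sign, to 0.84 (limma adjusted p = 0.345) and 0.60 (limma adjusted p = 0.357). Nfe2l1, the regulator of constitutive subunits, was at 29.7 and 24.997 RPKM in the low-Fos libraries against 13.5 to 17.6 in the other 10. Tap1, chosen after seeing its values, was at 46.6, 45.1, 53.1 and 70.6 RPKM under PBS, at 45.1, 42.3, 42.2 and 37.8 under CpG-scrODN, and at 43.9, 46.8, 41.3 and 30.8 under CpG-STAT3dODN. Tap1 and Psmb9, whose promoter windows overlap, were both lowest in replicate 4 labelled CpG-STAT3dODN and next lowest in replicate 4 labelled CpG-scrODN. In replicate 4 labelled PBS, however, Tap1 was highest while Psmb9 was above only 2 libraries.

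**Figure D5:**
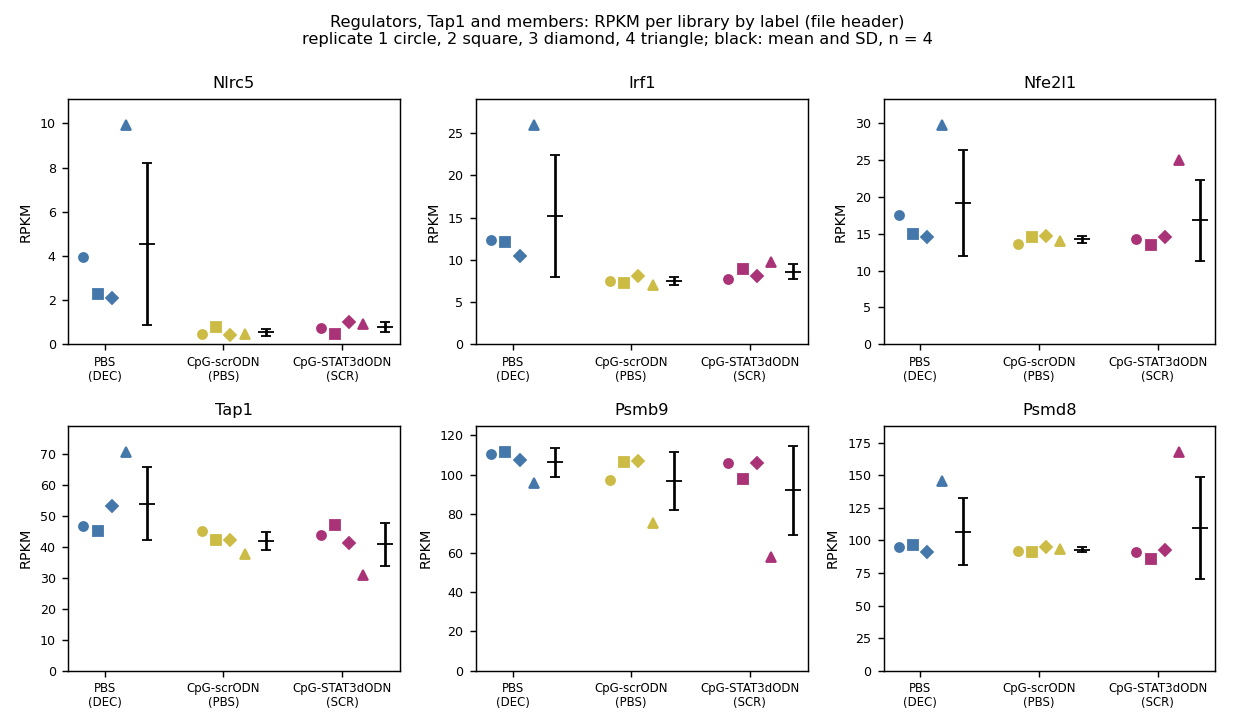
RPKM per library of Nlrc5, Irf1, Nfe2l1, Tap1, Psmb9 and Psmd8 by label, with the file header in brackets, the replicate number as the symbol and the mean and SD in black (n = 4). Nlrc5 and Irf1 are higher in each library labelled PBS than in all others, while Psmb9 overlaps between the labels.

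Markers of other spleen cells differed between the labels. The summed level of 16 B-cell markers was 277 to 909 RPKM under PBS, 28.7 to 52.1 under CpG-scrODN and 53.4 to 153 under CpG-STAT3dODN, and limma called 15 and 14 of the 15 tested lower than the PBS label. No B-cell marker was at 0 in all libraries. Of 9 T-cell markers 3 were tested and all 3 were lower than the PBS label, while 0 of 2 NK-cell, 0 of 8 macrophage and 0 of 8 erythroid markers passed. Cd3g reached an RPKM of 1 in the 4 libraries labelled PBS alone, and Cd2 in 6. Both thus met the filter on low values through the PBS label, which favours a call of lower than PBS. The same holds for Ebf1, Pax5, Fcer2a and Fcrla of the B-cell markers, at 5 to 7 libraries. Of 8 leukaemic progenitor markers, 0 passed for CpG-STAT3dODN minus PBS. Mpo, Elane, Prtn3 and Ctsg were lower under CpG-scrODN than under PBS. The other 4 did not pass: Kit, the antigen of the enrichment, was at 21.0 ± 12.4 RPKM (SD, n = 4) under PBS and 32.2 ± 5.67 under CpG-scrODN, Cd34 at 15.01 ± 13.2 and 28.9 ± 6.21, Myb at 52.5 ± 6.79 and 53.3 ± 2.18, and Flt3 at 1.46 ± 0.475 and 0.674 ± 0.177. In such bulk RNA, fewer cells of a type and less RNA per cell cannot be told apart. With the mean B-cell marker level as a covariate, the median difference of the constitutive genes went from -0.10 to 0.49 for CpG-scrODN minus PBS. For CpG-STAT3dODN minus PBS it went from -0.05 to 0.39. With this covariate 0 of 48 members were called (lowest limma adjusted p = 0.101 and 0.0589). Of all 10886 genes, 0 were called in the first comparison, and 1 higher and 6 lower in the second. With so few calls over all genes, the 0 is no result about the members. The covariate and the label move together in these libraries, and the part of B cells in the members' levels, or in those of Nlrc5 and Irf1, was not tested further.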

How the data were processed

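RNA-seq of 12 libraries was deposited as RPKM per gene symbol, per the file headers. The submitters' processing notes name mm10, TopHat 1.3.1 and Partek 6.12.0713, without their roles; annotation and filters: not given in the sources used here. From the RPKM the authors deposited, log2(RPKM + 1) was computed, a scale on which changes of low genes look smaller. Genes with RPKM of at least 1 in at least 4 libraries (10886) entered 1 model of the 3 labelled groups in limma 3.58.1 (R 4.3.3) with an intensity trend, tested on simulated data; calls had a Benjamini-Hochberg adjusted p under 0.05. Ratios of catalytic pairs were tested by exact permutation (scipy 1.17.1). Depth was estimated from the value of 1 read in single-transcript genes; 49.5% to 54.4% of values came out as whole reads within 0.05 read, too few to recover reads, so no count test was run. At the lowest depth an RPKM of 1 is about 31.5 reads per kilobase.

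Members and lists were chosen with earlier results of these data known. Named were the immunoproteasome genes, their partners, the other activators, the inhibitor, the tissue-restricted and symbol-only members, any called member, the highest and lowest member of each class, and, of the context lists, called genes with Nfe2l1 and Irf1; 1 further gene of this rule is not reported here. Positions are RefSeq's on GRCm38, which mm10 denotes, and values are of whole genes, all protein-coding. Alternatives were another pseudocount, filters, scalings, a replicate block, a B-cell covariate, and leaving out libraries. Of the 16 symbols for assembly and regulation, 13 were in the files.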

Additional observations from a re-analysis of the deposited data

Results flagged for a closer look

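In 96 groups of 4 libraries examined, 11 held a library whose gap to the nearest of the other 3 was large for the range of the group. For normal values chance gives about 1 in 20 groups, or 4.8. The groups share the same 12 libraries, and ratios reuse values of single genes, so the groups are not independent. No excess over chance is read from the 11. Replicate 4 labelled CpG-STAT3dODN accounted for 5 of the 11. It held Psmb8 at 115.5 RPKM against 149.7 to 152.8 in the other 3, Psmb9 at 58.2 against 97.9 to 105.9, Psmd8 at 168.2 against 85.8 to 92.5, and the regulator Nfe2l1 at 24.997 against 13.5 to 14.5. The log2 ratio of Psmb9 to Psmb6 there was -0.92 against 0.38 to 0.64. This library is 1 of the 2 with low Fos, and the part of that state in these values was not tested.

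Replicate 4 labelled PBS, the other low-Fos library, held Psmd8 at 145.4 RPKM against 90.9 to 96.5 and Irf1 at 25.9 against 10.4 to 12.4. Replicate 4 labelled CpG-scrODN held Psmb10 at 38.2 RPKM against 51.0 to 53.2, and its log2 ratio of Psmb10 to Psmb7 was -1.52 against -1.23 to -1.17; its Fos was not low, at 1038 RPKM. In replicate 3 labelled PBS the log2 ratio of Psmb8 to Psmb5 was 1.08 against 0.52 to 0.57. In replicate 1 labelled PBS the log2 ratio of Psmb10 to Psmb7 was -1.35 against -1.23 in each of the other 3.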

How the results depend on the processing

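The count of 0 called members held in each comparison under all 20 alternatives run. The lowest limma adjusted p was 0.0751 for CpG-scrODN minus PBS, 0.0589 for CpG-STAT3dODN minus PBS and 0.723 for CpG-STAT3dODN minus CpG-scrODN. In the last comparison 0 of all genes were called in any setting, as for CpG-scrODN minus PBS with the B-cell covariate, so the 0 says nothing of the members there. Without that covariate, 160 to 636 of all genes were called lower for CpG-scrODN minus PBS, and 75 to 283 for CpG-STAT3dODN minus PBS. The 9 pair ratios changed sign in 21 of 99 recomputed values; since 4 against 4 libraries allow no exact p under 0.0286 before adjustment over 9 tests, that none passed says nothing of their stability. Estimates of named genes changed sign in 146 of 1617 values, among them Irf1 with the B-cell covariate, from -0.85 to 0.84 for CpG-scrODN minus PBS. With the B-cell marker mean as a covariate, the difference of Nlrc5 turned from -1.65 to 1.08 for CpG-scrODN minus PBS (limma adjusted p = 0.381) and from -1.44 to 0.61 for CpG-STAT3dODN minus PBS (limma adjusted p = 0.502); the cause was not tested. The call of Nlrc5 for CpG-STAT3dODN minus PBS was also lost without the filter on low values (limma adjusted p = 0.0762) and with quantile normalization (limma adjusted p = 0.0784).

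Same-numbered libraries correlated in their deviations from -0.341 to 0.817, not every library correlated best with its own number, and the numbers were taken to pair nothing. With the replicate number as a block, 0 members were called in each comparison. Of all 10886 genes, 52 were called higher and 471 lower for CpG-scrODN minus PBS, 12 and 201 for CpG-STAT3dODN minus PBS, and 0 for CpG-STAT3dODN minus CpG-scrODN. Psme4 kept -0.38 for CpG-scrODN minus PBS (limma adjusted p = 0.207). Nlrc5 lost its call for CpG-STAT3dODN minus PBS (limma adjusted p = 0.0517), and Irf1 gained one for CpG-scrODN minus PBS (limma adjusted p = 0.0457). Irf1 also passed in that comparison with a pseudocount of 0.1 (limma adjusted p = 0.0455) and without both low-Fos libraries (limma adjusted p = 0.00184).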
